A study of Caenorhabditis elegans with 2 samples.

Results

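Summits of ZFH-2 chromatin immunoprecipitation sequencing (ChIP-seq) peaks that fell in the promoter window of a single protein-coding gene numbered 1416, out of 7085 summits on the nuclear chromosomes of Caenorhabditis elegans (20%, 95% Wilson interval 19.1 to 20.9%). The window of each of the 19973 protein-coding genes spanned 1000 bp before its annotated 5' end and 200 bp after it, and a summit, the highest point of a peak as the authors' list gives it, was taken when it lay in exactly one such window. Another 268 summits lay in the windows of several genes at once (247 in 2 windows and 21 in 3 or more) and are called shared-promoter summits, and 5401 lay outside all windows. Single-promoter summits were thus 84.1% of the 1684 summits in any promoter window. They fell at 1279 genes, which is 6.4% of all protein-coding genes, and 505 genes had a shared-promoter summit. The choice used position relative to genes alone, so it did not use signal, replicate support or base composition. Chromosome is partly fixed by it, because the spacing of genes, and with it the overlap of windows, differs between chromosomes. The assignment of a summit to a gene is likewise by position and was not tested by expression.

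All worms were of strain RW12167, in which GFP was inserted at the endogenous zfh-2 gene by CRISPR together with a loxP-flanked unc-119(+) marker, in an unc-119(tm4063) III background, and an anti-GFP antibody was used for the precipitation. There was 1 group of 2 biological replicates, whole young adults collected 64.5 hours after starved first-stage larvae, obtained by bleaching, were released into growth. Chromatin of all tissues was pooled, so a strong signal in few cells and a weak one in many cannot be told apart. No control library and no untagged worms were analysed here, and the depth of each library is unknown, as peak lists carry no counts of reads.

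ZFH-2 is a protein with zinc fingers and homeodomains, related to vertebrate ZFHX3 and ZFHX4 and to Drosophila Zfh2. Proteins of this family bind DNA and act in the development and function of neurons and other tissues. A promoter is the stretch around a gene's start where RNA polymerase II is loaded. In C. elegans many transcripts are trans-spliced, so the annotated 5' end of a gene can lie downstream of the place where transcription begins.

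The 5 strongest single-promoter summits found in both replicates' own lists are shown as sequence, since they are the clearest examples of what was precipitated next to a single gene. Each line holds the summit with 50 bases to either side, from the WBcel235 (ce11) RefSeq genome, written 5' to 3' on the strand of the gene. Capitals mark a match to any of 9 short motifs searched on both strands, namely the purine repeat GAGAGAGA, the E-box CACGTG, the E-box CAGCTG, the homeodomain core TAATTA, the cyclic AMP element TGACGTCA, the TATA-like TATAAA, the GC box GGGCGG, the GATA site GATAAG and the intron end TTTCAG. The serp-1.1 sequence is chrX:15841265-15841365 on the plus strand and holds CAGCTG. Those of hsp-3 (chrX:6092100-6092200, minus strand), ntl-2 (chrII:4376883-4376983, minus strand) and bet-2 (chrX:10568728-10568828, plus strand) hold none of the 9, and that of swsn-7 (chrII:8028386-8028486, minus strand) holds GATAAG read on the other strand.
serp-1.1: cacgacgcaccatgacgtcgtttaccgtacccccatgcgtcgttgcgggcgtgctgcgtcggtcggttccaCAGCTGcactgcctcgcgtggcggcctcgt
hsp-3: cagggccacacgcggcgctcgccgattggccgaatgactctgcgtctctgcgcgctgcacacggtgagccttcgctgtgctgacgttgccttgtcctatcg
ntl-2: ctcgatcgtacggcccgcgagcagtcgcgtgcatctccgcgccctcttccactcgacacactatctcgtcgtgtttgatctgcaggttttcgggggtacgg
swsn-7: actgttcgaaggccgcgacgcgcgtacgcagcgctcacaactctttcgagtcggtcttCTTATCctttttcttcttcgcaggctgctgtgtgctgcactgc
bet-2: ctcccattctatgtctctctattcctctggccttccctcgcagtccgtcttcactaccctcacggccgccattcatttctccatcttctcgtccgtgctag

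A further sequence is shown because GGGCGG was the 1 motif of the 9 whose share within 50 bp passed the test against summits outside windows, with the higher share at single-promoter summits. It belongs to the strongest summit with that motif, at grk-1 (chrX:9999645-9999745, minus strand), a gene for a kinase of G protein-coupled receptors.
grk-1: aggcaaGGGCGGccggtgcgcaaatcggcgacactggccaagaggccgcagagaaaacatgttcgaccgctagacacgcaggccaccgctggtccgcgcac

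The 6 sequences shown had GC contents of 67.3% (serp-1.1), 65.3% (hsp-3), 61.4% (ntl-2), 56.4% (swsn-7), 54.5% (bet-2) and 66.3% (grk-1). Over all 1416 single-promoter summits the GC content within 50 bp averaged 55% ± 7.19 (SD over summits), against 35% ± 8.44 in 174751 tiles of the same length laid over the single-window sequence. GC content fell off close to the summits, and 300 bp to either side of them it averaged 38.4% ± 7.31.

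The strongest single-promoter summits found in both own lists are given with their genes, as a description without a test of what the genes share. Signal here is the value that the authors' list gives each peak, on a scale not given in the sources used here. It was used to rank and describe peaks within a list. The serp-1.1 peak (chrX:15841031-15841577, summit at -257 bp) ranked 5 among all peaks with a signal of 738 in the conservative list, and its signal was 423 in replicate 1's own list and 316 in replicate 2's. The hsp-3 peak (chrX:6091845-6092406) had its summit at -26 bp and a signal of 688, with 362 in replicate 1 and 326 in replicate 2. hsp-3 encodes a BiP chaperone of the endoplasmic reticulum. The ntl-2 peak (chrII:4376579-4377203, -468 bp) had a signal of 673, with 376 and 305 in replicates 1 and 2. ntl-2 encodes a subunit of the CCR4-NOT deadenylase, which shortens mRNA tails.

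Next in signal came swsn-7, bet-2 and myrf-1. The swsn-7 summit (chrII:8028111-8028722, -673 bp) had a signal of 670.5, with 360.0 in replicate 1 and 311 in replicate 2, and lay inside an annotated non-coding gene or pseudogene. swsn-7 encodes a subunit of a SWI/SNF chromatin remodeller. The bet-2 summit (chrX:10568309-10569175, -495 bp) had a signal of 666, with 371 and 297 in replicates 1 and 2, and bet-2 encodes a protein with bromodomains of the BET family. The myrf-1 summit (chrII:10502587-10503163, -320 bp) had a signal of 664, with 360.4 and 305. myrf-1 encodes a membrane-bound transcription factor needed for moulting and for the timing of development.

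Among the 25 strongest found in both own lists, signals ran from 518 (eat-16, an RGS protein that restrains G protein signalling) to 738. The set also held cebp-1 (611, a bZIP factor that acts in axon regeneration), gsa-1 (608, the stimulatory G protein alpha subunit), epn-1 (592, an endocytic epsin), nhr-48 (577, a nuclear hormone receptor), mab-10 (569, a NAB transcription cofactor), puf-9 (565, a Pumilio family RNA-binding protein), lin-66 (554, a heterochronic gene) and ain-1 (552, a GW182 protein of the microRNA silencing complex). The others were grk-1 (628), sup-37 (593), gei-4 (575), Y43F8C.3 (544), madf-9 (543), spc-1 (541, alpha spectrin), F13C5.2 (538), Y59A8B.24 (537), lin-59 (533, a histone methyltransferase related to ASH1) and zip-11 (521, a bZIP factor). Within the own lists the ranks of these 25 peaks were no lower than 82 in replicate 1 and 150 in replicate 2. Of the 25, 11 were on the X chromosome, against 21.9% of all 1416 single-promoter summits. Upstream of the 5' end lay 23, against 80.8% of all, and 20 of them were more than 250 bp away, against 811 of the 1416. In no annotated gene lay 16, against 45.3% of all, and none lay in a coding exon, against 443 of the 1416. The GC content of the 25 averaged 61% ± 6.41 (SD, n = 25), from 46.5% at puf-9 to 71.3% at mab-10.

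At the tagged gene itself, the zfh-2 window held a single summit, on chromosome I at position 803210, 158 bp upstream of the 5' end. Its signal was 125 in the conservative list, 72 in replicate 1 and 52.7 in replicate 2, below the median of single-promoter summits in the conservative list. The insertion sits in this gene, and whether it affects the local signal was not tested. The window of unc-119, whose rescuing copy was inserted as a marker, held no single-promoter summit.

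Single-promoter summits were spread over the whole window, with a median position of -330.5 bp (quartiles -654 and -65.8 bp). Of the 1416, 1144 (80.8%, Wilson interval 78.7 to 82.8%) lay upstream of the 5' end and 272 downstream. The rate over sequence that lies in exactly one window was 73.9 per Mb (95% exact Poisson interval 70.1 to 77.9, over 19.2 Mb). In bins of 100 bp it was highest from +100 to +200 bp (97.2 per Mb, interval 82.6 to 114) and from -300 to -201 bp (95.3, 80.6 to 112), and lowest from -900 to -801 bp (50.9, 40.5 to 63.1). The window limits cut through a continuous distribution. Within 100 bp of the upstream limit there were 113 summits inside, with a median signal of 129, and 122 outside, with 126. At the downstream limit there were 156 inside, with a median signal of 119.7, and 130 outside, with 107.

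**Figure D1:**
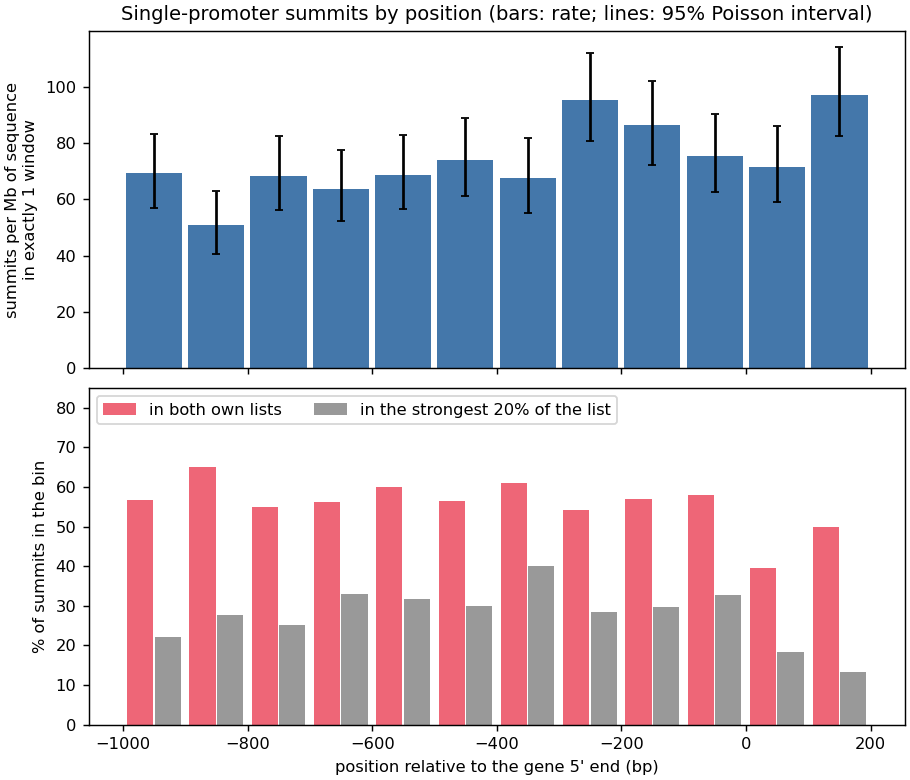
Upper panel, single-promoter summits per Mb of sequence that lies in exactly one promoter window, in 100 bp bins of position relative to the gene 5' end (bars, with 95% exact Poisson intervals). Lower panel, the percentage of the summits in each bin found in both replicates' own lists and in the strongest 20% of the whole list, where the bin from +100 to +200 bp has the highest rate in the upper panel and the lowest share of strongest summits (13.3%).

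The strongest summits were less frequent downstream of the 5' end. They made up 15.4% of the 272 summits downstream (Wilson interval 11.6 to 20.2%), 28.8% of the 333 from -250 to -1 bp (24.2 to 33.9%) and 30.5% of the 811 farther upstream (27.4 to 33.7%). Of the 605 summits from -250 to +200 bp, 22.8% were in the strongest 20% of all summits, against 30.5% of the 811 farther upstream (odds ratio 0.675, 95% interval 0.525 to 0.865, two-sided Fisher's exact test, adjusted p = 0.00207, Benjamini-Hochberg over 9 tests among single-promoter summits). They were also found less often in both replicates' own lists (50.2 against 59.1%, beside 48.3% of all summits, odds ratio 0.7, 0.563 to 0.87, exact test, adjusted p = 0.00178). In the list of replicate 1 alone neither difference passed (odds ratios 0.761 and 0.791, exact tests, adjusted p = 0.168 and 0.246). Neither passed over upstream summits alone, where the odds ratio was 0.925 for strength (0.69 to 1.23, exact test, adjusted p = 0.619) and 0.816 for support (0.626 to 1.06, exact test, adjusted p = 0.195, over 3 tests). The differences between the 605 and the 811 are thus not shown to follow distance upstream of the gene. The share of summits with GC content at or above the list median was 50.9% from -250 to +200 bp and 52.7% farther upstream, beside 53.4% of all summits (odds ratio 0.933, interval 0.751 to 1.16, exact test, adjusted p = 0.519). Summits are not independent replicates, and these p values cover the counting of summits only.

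Strength also differed by what the annotation holds under a summit. Of the 1416, 641 (45.3%) lay in no annotated gene, 260 in a coding exon of another gene, 183 in the assigned gene's own coding exons, 136 in a non-coding gene or pseudogene, 114 in an untranslated exon or intron of another gene, 66 in the gene's own untranslated exons and 16 in its introns. The strongest 20% of the list took 14.7% of the 443 summits in coding exons, against 33.7% of the 641 in no annotated gene (odds ratio 0.339, 0.244 to 0.465, exact test, adjusted p = 6.49e-12). Support by both own lists was 46% in coding exons, against 60.2% in no annotated gene (odds ratio 0.564, 0.438 to 0.726, exact test, adjusted p = 1.98e-05), while the odds ratio in the list of replicate 1 was 0.992 (exact test, adjusted p = 1). The weaker coding exon summits were richer in GC, with 58.5% at or above the list median, against 49% (odds ratio 1.47, 1.14 to 1.89, exact test, adjusted p = 0.0031), though with 1 summit per merged region the odds ratio was 1.27 (exact test, adjusted p = 0.087). Coding examples are the summits at +118 bp in rla-1 (signal 221, an acidic ribosomal protein), +130 bp in vit-2 (175, a yolk protein) and +134 bp in asp-1 (107, an intestinal protease).

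Single-promoter summits were stronger and better supported than summits outside windows, and did not differ detectably from shared-promoter summits in these measures. The strongest 20% of all summits by signal took in 27.2% (385) of the single-promoter summits, against 29.5% of shared-promoter summits (odds ratio 0.893, interval 0.665 to 1.21, exact test, adjusted p = 0.608) and 17.6% of summits outside windows (odds ratio 1.74, 1.52 to 2, two-sided Fisher's exact test, adjusted p = 1.78e-13, over 32 tests of 7 features and 9 motifs in 2 comparisons). Median signals were 128 for single-promoter, 139 for shared-promoter and 117 for other summits. A peak was counted as supported when it overlapped a thresholded peak by at least 1 bp in both replicates' own lists. This held for 55.3% of single-promoter summits, against 48.3% of all summits, 56.3% of shared-promoter summits (odds ratio 0.958, 0.73 to 1.26, exact test, adjusted p = 0.901) and 46% of those outside (odds ratio 1.45, 1.29 to 1.64, exact test, adjusted p = 7.86e-09). The share in neither was 23.2%, against 27.9% of all summits, 17.9% of shared-promoter summits (odds ratio 1.39, 0.985 to 1.98, adjusted p = 0.148, exact test) and 29.6% outside (odds ratio 0.719, 0.625 to 0.825, exact test, adjusted p = 8.09e-06).

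Support moved with signal, and the difference in support from summits outside was smaller at like signal. Over 5 equal classes of signal the Mantel-Haenszel odds ratio was 1.2 (adjusted p = 0.131) for both lists and 0.836 (adjusted p = 0.173) for neither, and among the peaks of replicate 1 the odds ratio for support by replicate 2 was 1.07 (exact test, adjusted p = 0.64). In the strongest class 99% of single-promoter summits (381 of 385) were in both own lists, against 98.7% of the other summits. In the following classes, strong to weak, 84.6, 32.3, 8.59 and 26.9% of single-promoter summits were in both lists. Of the 65 summits of the weakest class found in both lists, 64 lay within 600 bp of another summit of the list, so that a neighbour's peak may overlap the same peaks of the own lists. The lin-14 window shows this case. Its summits at -205 bp (signal 285) and -2 bp (signal 113) matched the same pair of own-list peaks, of signal 182 in replicate 1 and 104 in replicate 2. Another summit lay within 600 bp of 20.6% of single-promoter summits, as of 20.6% of all summits, against 17.5% of shared-promoter (odds ratio 1.22, 0.863 to 1.76, exact test, adjusted p = 0.527) and 20.8% of other summits (odds ratio 0.99, 0.853 to 1.15, adjusted p = 1, exact test).

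**Figure D2:**
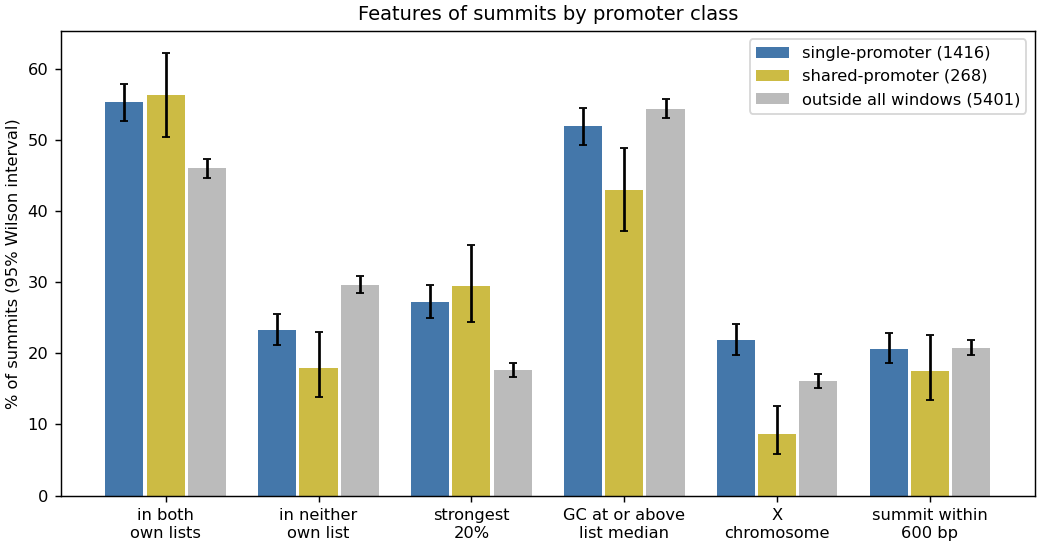
Percentage of single-promoter, shared-promoter and other summits with each of 6 features, with 95% Wilson intervals over summits. Single-promoter summits stand apart from those outside windows in support, strength and X linkage, and from shared-promoter summits in GC content. Of these gaps, support did not pass over signal classes (odds ratio 1.2) and X linkage did not with 2000 bp windows (1.18). GC content did not pass in the lists of replicate 1 (1.27) and replicate 2 (1.26). The gap in X linkage to shared-promoter summits (21.9 against 8.58%) is partly set by the smaller overlap of X windows.

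Where the signal was high, most single-promoter summits were in both replicates' own lists. The conservative list was derived from both replicates and thresholded on their irreproducible discovery rate. Agreement between the replicates is therefore partly set by how that list was made. Both own lists held 783 of the 1416, replicate 1 alone 161, replicate 2 alone 143 and neither 329. Of those 329, 327 (99.4%) were in both replicates' longer ranked lists. Presence there may be set by the making of the conservative list, and the share over all summits is not given. For the 783, Spearman's rho between the signals in replicates 1 and 2 was 0.756, and Pearson's r of log10 signal was 0.825. Keeping the strongest summit of each merged region (666 summits) gave 0.711 and 0.799. These are descriptions across peaks, which are not independent. The median distance between matched summits was 19 bp, and 95.7% of them were within 100 bp. The strongest summits with no support in either own list were at C47E8.11 and sri-38 (126 each), dhs-8 (124), W07B8.4 (123) and M03C11.1 (121), close to the median signal of 128.

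**Figure D3:**
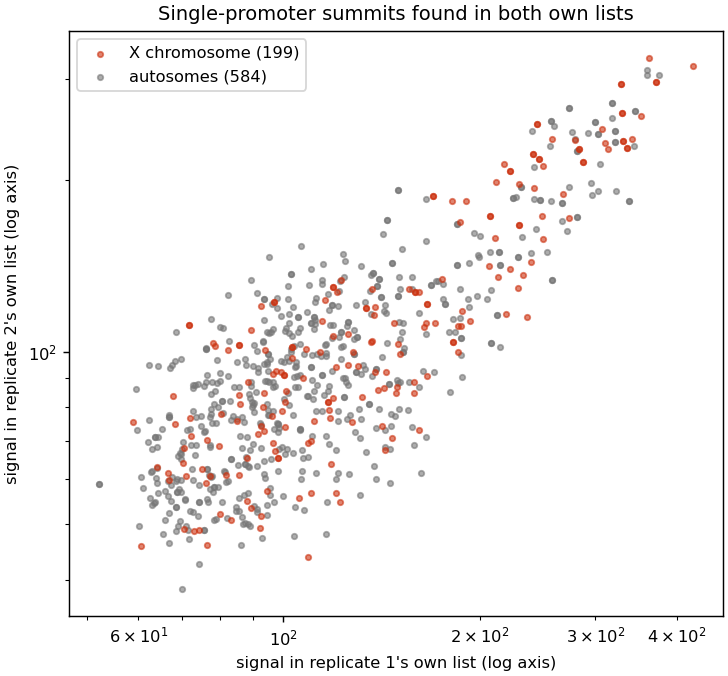
Signal in replicate 2's own list against signal in replicate 1's own list (both axes logarithmic, in the authors' signal units) for the 783 single-promoter summits found in both, 199 on X and 584 on autosomes. Points follow a common diagonal (Spearman rho 0.756), and red X points are frequent at its upper end.

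Each replicate's own thresholded list gave single-promoter summits by the same rule: 976 of 4281 (22.8%, Wilson interval 21.6 to 24.1%) in replicate 1 and 999 of 4696 (21.3%, 20.1 to 22.5%) in replicate 2. They fell at 887 and 917 genes, and 668 genes were common to both, which is 75.3% of replicate 1's and 72.8% of replicate 2's genes. All 3 lists named 648 genes, 50.7% of the 1279. The median position was -338 bp in replicate 1 and -350 bp in replicate 2, and the X chromosome held 25.3 and 23.3% of their single-promoter summits.

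The X chromosome held a larger share of the single-promoter summits than of those outside windows, and its single-promoter summits were more often among the strongest. X carried 21.9% of single-promoter summits (310), beside 15.5% of the sequence that lies in exactly one window, against 17% of all summits and 16.1% of summits outside (odds ratio 1.46, 1.26 to 1.69, exact test, adjusted p = 4.02e-06). With windows that reach 2000 bp upstream, that difference had an odds ratio of 1.18 and did not pass (exact test, adjusted p = 0.0662). Shared-promoter summits were on X in 8.58% (23), but X windows overlap less, since 95% of its window sequence lies in exactly one window, against 86.9 to 88.8% on the autosomes. The choice thus sets part of that gap, and no test of it is given. Per Mb of such sequence the rate was 105 on X (exact Poisson interval 93.3 to 117), 106 on chromosome I, 61.8 to 75.2 on II, III and IV, and 44 on V (38.3 to 50.4). On X 10.2% of protein-coding genes had a single-promoter summit, against 8.83% on I and 3.8% on V.

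Among single-promoter summits, 36.8% of those on X were in the strongest 20%, against 24.5% on autosomes (odds ratio 1.79, 1.36 to 2.36, exact test, adjusted p = 8.04e-05). Both own lists held 64.2% on X and 52.8% on autosomes (odds ratio 1.6, 1.23 to 2.1, exact test, adjusted p = 8.39e-04), a difference that did not pass in the list of replicate 1 (1.18, exact test, adjusted p = 0.444). GC content at or above the list median was found in 47.4% on X and 53.2% on autosomes (odds ratio 0.795, 0.612 to 1.03, exact test, adjusted p = 0.0927). X summits lay in other places: 60.3% were in no annotated gene, against 41% on autosomes, and 4.84% in a coding exon of another gene, against 22.2%. Within summits in no annotated gene, the strongest 20% took 40.1% on X (75 of 187, Wilson interval 33.3 to 47.3%), against 31.1% on autosomes (141 of 454, 27 to 35.5%), and in non-coding genes or pseudogenes 41.5% on X, against 41% on autosomes. Those within-place values are a description, and their difference was not tested.

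**Figure D4:**
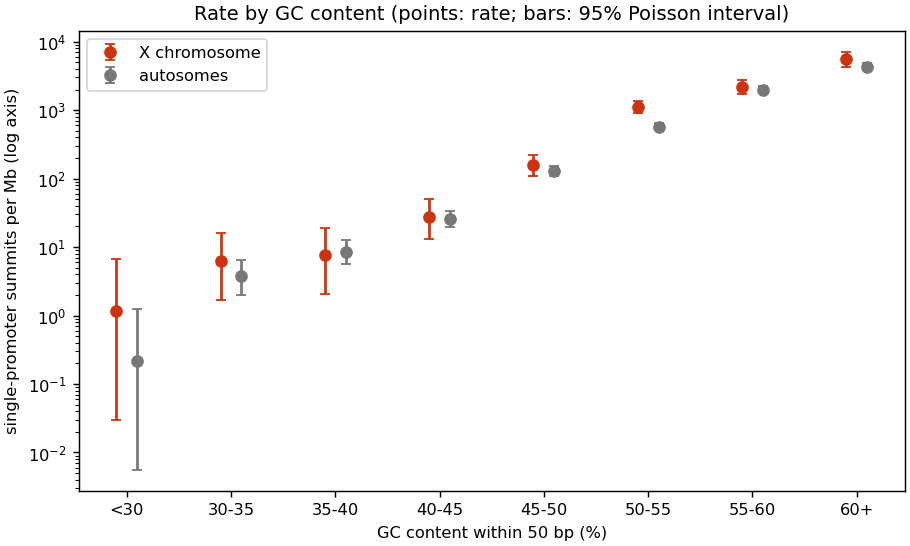
Single-promoter summits per Mb of single-window tiles in the same GC class (logarithmic axis), for X and for autosomes, with 95% exact Poisson intervals. Summits are classed by their own GC content within 50 bp and not by the tile they lie in. The rate climbs with GC content on both, and the intervals of X and autosomes overlap in every class except 50 to 55% GC, where it was 1117.9 per Mb on X and 577 on autosomes (at 55 to 60% it was 2191.4 and 1991.4).

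The rate of single-promoter summits varied widely with base composition. Under 30% GC were 30.5% of the single-window tiles and 2 summits (0.372 per Mb of such tiles, interval 0.045 to 1.34). At 60% GC or more were 0.417% of the tiles and 331 summits (4501.7 per Mb, 4029.7 to 5013.7). Summits were classed by the GC content within 50 bp of them and not by the tile they lay in. A summit of high GC content can thus lie in a tile of a lower class, which raises the rate in the highest classes. Signal moved with it, from a median of 118 at 50 to 55% GC to 184 at 60% or more. The share at or above the list's median GC of 55.4% was 51.9% in single-promoter summits, against 53.4% in all, 42.9% in shared-promoter summits (odds ratio 1.44, 1.09 to 1.89, exact test, adjusted p = 0.035) and 54.3% in those outside (odds ratio 0.907, 0.805 to 1.02, exact test, adjusted p = 0.242). The difference from shared-promoter summits did not pass in the other pooled list (1.4, exact test, adjusted p = 0.0638) or in the lists of replicate 1 (1.27) and replicate 2 (1.26). Peak calling over sonicated chromatin can itself depend on GC content, and without a control library here its part in these rates was not tested.

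The motif GGGCGG, a GC box of the kind bound by SP and KLF family factors, lay within 50 bp of 12.5% of single-promoter summits (177, Wilson interval 10.9 to 14.3%), against 8.93% of all summits. Shared-promoter summits had it in 9.33% (odds ratio 1.39, 0.887 to 2.25, exact test, adjusted p = 0.325) and summits outside in 7.98% (odds ratio 1.65, 1.36 to 1.99, exact test, adjusted p = 2.67e-06). It was in 1.89% of the window tiles, and in 11.3% of tiles when these were weighted to the GC content of the summits in classes 2.5% wide. Beside the grk-1 summit shown above, it was present at gsa-1, act-4 (a muscle actin), vab-1 (an Eph receptor) and zfh-2 itself. The 177 summits with it had a median signal of 152.

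No other motif passed the threshold in either comparison. GAGAGAGA was at 5.08% of single-promoter summits, against 4.02% of all, 4.1% of shared-promoter summits and 3.74% outside (odds ratio to those outside 1.38, 1.03 to 1.83, exact test, adjusted p = 0.109). It was in 0.813% of tiles and 1.92% at like GC, and examples are ain-1 and unc-112 (kindlin, of muscle attachments). CAGCTG, an E-box, was at 6.07% of single-promoter summits, against 6.2% of all summits, 1.86% of tiles and 5.64% at like GC. CACGTG, another E-box, was at 2.82% of single-promoter summits, against 3.81% of all and 4.05% of those outside (odds ratio 0.688, 0.476 to 0.973, exact test, adjusted p = 0.111). The core promoter motif TATAAA was at 1.91% of single-promoter summits, against 1.43% of all, 3.73% of shared-promoter and 1.18% of other summits. The homeodomain core TAATTA was rare, at 0.636% of single-promoter summits, against 0.692% of all summits, 5.2% of tiles and 0.638% of tiles at like GC. TGACGTCA, the cyclic AMP response element, stood at 0.565% of single-promoter summits, against 0.762% of all. GATAAG, for zinc finger factors such as ELT-2, stood at 1.84%, against 2.1% of all, and TTTCAG, which is also the end of a typical C. elegans intron, at 7.06%, against 6.48% of all. A match describes the letters in the window and shows no binding site.

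Transfer RNA genes, which RNA polymerase III transcribes, lay within 200 bp of 0.847% (12) of single-promoter summits, against 1.45% of all summits, 1.49% of shared-promoter summits (odds ratio 0.564, 0.169 to 2.42, exact test, adjusted p = 0.54) and 1.61% outside (odds ratio 0.522, 0.259 to 0.963, exact test, adjusted p = 0.111). The strongest of the 12 was at T04D3.5 (signal 252), followed by nhr-255 (signal 238).

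Most genes with a single-promoter summit had 1 of them (1145 of 1279), 131 had 2 and 3 had 3. The sup-37 window held summits at -832 bp (signal 593), -601 bp (45.6) and +150 bp (93.4), the first and second matching the same pair of own-list peaks and the third matching none. The jph-1 window held them at -1000 bp (216), -461 bp (6.53) and -253 bp (234), all counted in both own lists, though those at -461 and -253 bp matched the same pair of own-list peaks. jph-1 encodes a junctophilin, which joins the plasma membrane to the sarcoplasmic reticulum. The F32B5.7 window held them at -358 bp (97.8), -84 bp (121) and +138 bp (150.1), and the last was supported by both lists. In the 131 pairs the summits were a median of 204 bp apart, 114 pairs were within 600 bp, and the stronger summit was the nearer to the 5' end in 59. In all, 124 summits had the same listed interval as another single-promoter summit, and such pairs are not separate observations. In addition, 112 summits (7.91%) had a peak whose edge reached a second gene's window.

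The surroundings of the genes were also described. The nearest upstream gene pointed away from the gene, with a divergent promoter, for 37.1% of genes with a single-promoter summit, against 42.2% of all genes, and within 1000 bp for 6.96%, against 17.2%. This difference is partly set by the choice, because a close divergent neighbour puts a summit in both windows. A tandem neighbour ended within 1000 bp in 28.8%, against 27.8% of all genes.

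Gene groups were described by counts, as the groups were written with results of these data known and were not tested. Heterochronic genes, which time larval development, had the highest share of the 30 groups, 9 of 20 (45%, Wilson interval 25.8 to 65.8%), against 6.4% of all protein-coding genes. Their 13 summits had a median signal of 184, against 128 over all single-promoter summits, and support moved with signal. All 13 were counted in both own lists, beside 55.3% of all single-promoter summits and 48.3% of all summits. Some of the 13 were counted as neighbours that match the same own-list peaks. They were myrf-1, mab-10 and lin-66, described above, with din-1 (signal 413, a nuclear receptor corepressor), lin-14 (285), kin-20 (250.3, a casein kinase related to Drosophila Doubletime), blmp-1 (184, a zinc finger transcription factor), pan-1 (139, a leucine-rich repeat membrane protein that partners MYRF) and nhr-25 (126). din-1 had 231 and 194 in replicates 1 and 2, and kin-20 had 121 and 127. For blmp-1 the replicate values were 87.6 and 94.7, and for pan-1 84.6 and 52.8. The microRNA pathway and deadenylation group had 6 of 24 (25%), led by ntl-2, ain-1 and cgh-1 (224, a DEAD-box helicase).

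Chaperone and endoplasmic reticulum stress genes had single-promoter summits at 10 of 32 (31.2%, 18 to 48.6%), with a median signal of 271, against 128 over all single-promoter summits. After hsp-3 came crt-1 (calreticulin, 516, with 305 and 213 in replicates 1 and 2) and atf-6 (a membrane-bound stress factor, 515, with 279.7 and 235). pdi-2 (494) and pdi-6 (285) encode protein disulphide isomerases, uggt-1 (256) a folding sensor, and xbp-1 (214) the factor spliced by IRE-1. Of the 10 summits in this group 7 were in both own lists, beside 55.3% of all single-promoter summits. The summits at pdi-3, hsf-1 and hsp-1 were not. Those of hsf-1 (105, the heat shock factor) and hsp-1 (98, a cytosolic Hsp70) stood below the median of 128. The hsf-1 summit had support from replicate 2 alone and that of hsp-1 from neither.

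Muscle, pharyngeal and basement membrane genes were described as further groups. Body wall muscle genes had 12 of 39 (30.8%, 18.6 to 46.4%), with act-4 (374), unc-112 (367), unc-15 (335, paramyosin), unc-54 (243, the major myosin heavy chain) and mup-2 (228, troponin T). The act-4 summit had 190.3 in replicate 1 and 184 in replicate 2, and that of unc-15 had 193 and 143. Pharyngeal genes had 7 of 24 (29.2%), with sqd-1 (243), abu-14 (238) and pha-4 (151, the FoxA selector of the pharynx). Basement membrane genes had 5 of 24 (20.8%), with let-2 (214, a type IV collagen chain), ost-1 (188, SPARC) and sdn-1 (187, syndecan).

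In signalling and neuronal groups the counts were uneven. G protein signalling genes had 7 of 24 (29.2%), led by gsa-1, eat-16 and rgef-1 (255, a Ras guanine nucleotide exchange factor). Presynaptic and vesicle genes had 6 of 28 (21.4%), led by syd-2 (424, liprin-alpha, with 249 and 173 in replicates 1 and 2), aex-3 (246, a Rab exchange factor) and egl-21 (175, a neuropeptide processing carboxypeptidase). Axon guidance and adhesion genes had 6 of 31 (19.4%). Of their 6 summits 2, at sdn-1 and vab-1 (186), were in both own lists, beside 55.3% of all single-promoter summits. The rest were in a single own list or in none, as at unc-76 (124). Neuronal ion channel genes had 1 of 25, at unc-1 (114, a stomatin). Neuropeptide genes had 8 of 107 (7.48%), led by flp-14 (211), nlp-40 (168) and nlp-25 (159), and insulin-like peptide genes had 3 of 39 (7.69%), ins-24 (131), ins-39 (123) and ins-26 (86.1).

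Wnt, Notch and Ras pathway genes had 7 of 40 (17.5%), led by mig-1 (225, a Frizzled receptor), apx-1 (162, a Notch ligand) and sem-5 (142, the GRB2 adaptor). Their 8 summits had a median signal of 98.3, against 128 over all single-promoter summits. Of the 8, 2 were in both own lists, beside 55.3% of all single-promoter summits. TGF-beta and insulin pathway genes had 6 of 35 (17.1%), led by the kinase gene akt-2 (170.1), sma-9 (125, a Schnurri factor) and akt-1 (112). Their 6 summits had a median signal of 102, and 2 were in both own lists. Among regulators of transcription, chromatin genes had 9 of 40 (22.5%), with cbp-1 (494, a histone acetyltransferase) after swsn-7 and bet-2. The basic helix-loop-helix, T-box, forkhead and GATA genes had 14 of 82 (17.1%), led by mdl-1 (425, a MAD-like partner of MAX), hlh-11 (417) and hlh-30 (317, the TFEB factor of lysosome and autophagy genes). Homeobox genes had 11 of 96 (11.5%), led by unc-42 (412), ceh-39 (312, an X signal in sex determination) and nob-1 (134, a posterior Hox gene). Nuclear hormone receptor genes had 20 of 274 (7.3%), led by nhr-48, nhr-1 (335) and nhr-255 (238).

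**Figure D5:**
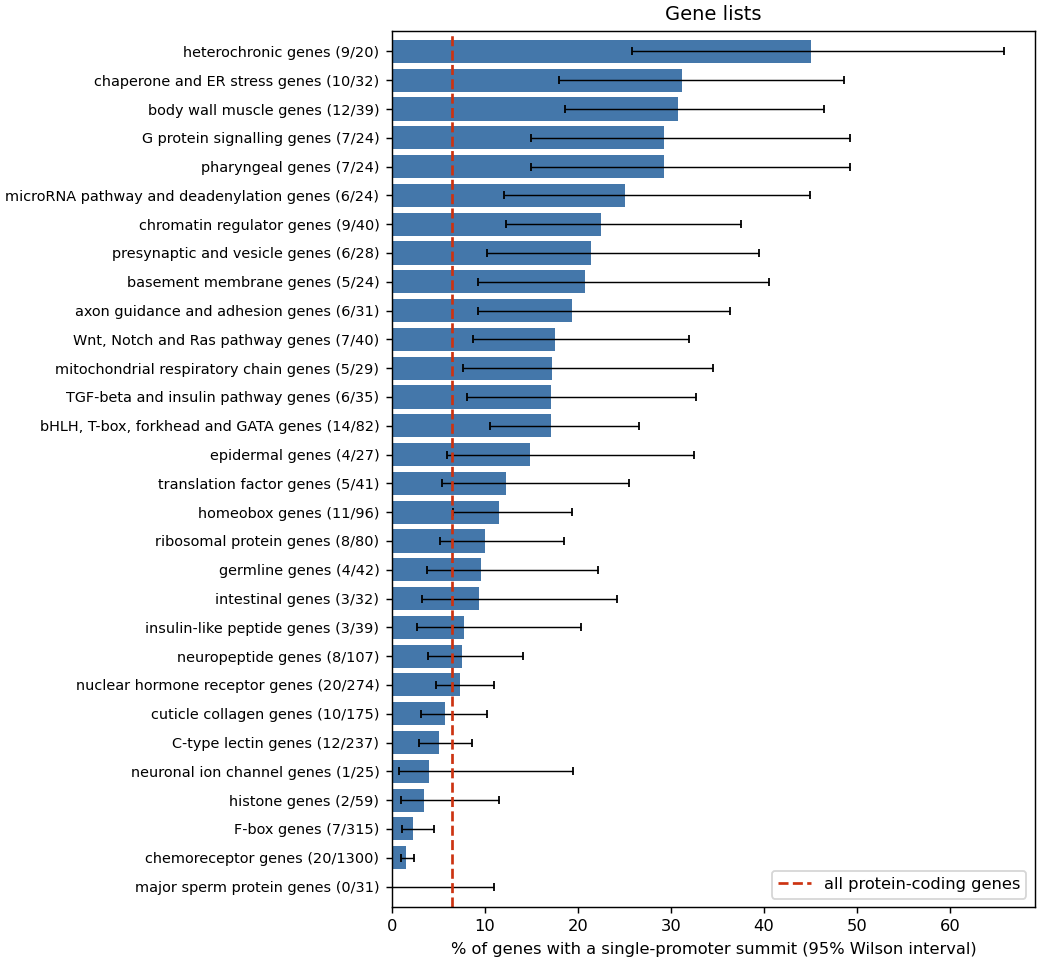
Percentage of the genes of each of 30 groups that have a single-promoter summit, with 95% Wilson intervals over genes and the number of genes with a summit out of the genes found. The dashed line is the 6.4% of all protein-coding genes, and heterochronic genes (45%) are at the top while major sperm protein genes (0 of 31) are at the bottom.

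Ribosomal protein and histone genes more often had a shared-promoter summit alone than a single-promoter summit. Of all 19973 protein-coding genes, 505 had a shared-promoter summit, 23 of them beside a single-promoter one, and 1279 had a single-promoter summit. A shared-promoter summit also lies in the window of another gene. Ribosomal protein genes had 8 of 80 (10%) with a single-promoter summit, led by rpl-3 (434), rpl-41.2 (306) and rla-1, and another 21 with a shared-promoter summit alone. Translation factors had 5 of 41 (12.2%), with eef-1A.2 (448), eif-2beta (228) and eif-3.J (183). Mitochondrial respiratory chain genes had 5 of 29 (17.2%), with cox-5B (314), cox-5A (246) and sdha-1 (173). Histone genes, many of them in divergent pairs, had 2 of 59 (3.39%), his-37 (328) and his-42 (155), and another 10 with a shared-promoter summit alone.

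In the other tissue groups the counts were 3 or 4 genes, with shares above the 6.4% of all protein-coding genes but Wilson intervals that take it in. Epidermal genes had 4 of 27 (14.8%), led by hmp-1 (228, alpha-catenin) and wrt-2 (135). Germline genes had 4 of 42 (9.52%), led by cgh-1, pgl-3 (222, a P granule protein) and rad-51 (181). Intestinal genes had 3 of 32 (9.38%), vit-2, asp-1 and act-5 (98.4, the intestinal actin), all of them in coding exons. The large gene families below had shares under 6.4%, though the Wilson intervals of cuticle collagens, C-type lectins and major sperm protein genes take it in. Cuticle collagens had 10 of 175 (5.71%, 3.13 to 10.2%), led by col-44 (246), col-39 (227) and col-95 (190.2). C-type lectins had 12 of 237 (5.06%, 2.92 to 8.64%), led by clec-123 (250.1), clec-251 (176) and clec-134 (135). Of the 12 lectin summits 1 was in both own lists, beside 55.3% of all single-promoter summits. F-box genes had 7 of 315 (2.22%), led by fbxa-176 (351), fbxa-66 (182) and fbxb-72 (170.4). Chemoreceptor genes had 20 of 1300 (1.54%, interval 0.998 to 2.36%), led by sri-71 (254), srab-10 (224) and sri-30 (213), and major sperm protein genes had none of 31 (0%, Wilson interval to 11%).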

How the data were processed

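The 2 replicates of 1 group were used as deposited, as narrow peak files on ce11 coordinates, per the labels: a conservative thresholded list and another pooled list, and for each replicate a thresholded and a longer ranked list. The authors' score follows the irreproducible discovery rate and reaches at most 1000. The authors' signal per peak, of unstated scaling, was used to rank and describe peaks. Neither aligner nor peak caller is given in the sources used here. Summits were the peak start plus the deposited offset, and 2 mitochondrial peaks were left out. Genes came from Ensembl release 115. A summit under several annotations was placed in coding exon first, then untranslated exon, intron and non-coding gene.

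Shares were compared by two-sided Fisher's exact tests with conditional odds ratios and 95% intervals, Benjamini-Hochberg adjusted, threshold 0.05. Wilson and Poisson intervals cover counting only. The code was tested on simulated data. The single-promoter summits, gene groups and motifs were chosen with earlier results of these data known. Genes named are those of the 25 strongest summits in both own lists, up to 3 per group by signal, the 5 strongest in neither list, zfh-2, unc-119 and the 3 genes with 3 summits (131 tied at 2 are not named). Group members beyond 3 were named after their values were seen. Alternatives were other lists, windows, 5' ends, overlaps and motif windows, the stronger 50% of peaks, 1 summit per merged region, upstream summits alone, and strata of GC content or signal. Scripts ran in Python 3.11.15 (statsmodels 0.14.6, SciPy 1.17.1, NumPy 2.4.6, matplotlib 3.10.9, pandas 2.3.3).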

Additional observations from a re-analysis of the deposited data

How the results depend on the processing

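Of 168 alternative values for the main comparisons, 129 kept their direction, their side of the threshold and, for shares, their size, and so did 31 of 36 for motifs. For the rest the cause was not tested. Odds ratios are given below, single-promoter summits first.

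The share of summits in exactly one window was 22.2% in the stronger 50% of peaks, 11.8% with windows of 500 and 100 bp, 29.4% with 2000 and 200 bp, 27.4% with 5' ends of all transcripts and 21.3 to 22.8% in the replicates' own lists. GC content against shared-promoter summits lost its call in the other pooled list (1.4), the stronger 50% (1.52), the 2000 bp window (1.26), all transcripts (1.33) and the own lists (1.26 to 1.27). Against summits outside it passed in the stronger 50% (0.703) and in the own lists (0.778 to 0.812), below 1 in each.

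Support against shared-promoter summits reversed in the stronger 50% (1.7), the 500 bp window (1.13), over 5 signal classes (1.37) and in replicate 1's list (1.5, against 0.621 in replicate 2's), never past the threshold. Support against those outside lost its call over signal classes (1.2) and in replicate 1's list (1.07, against 1.44 in replicate 2's), and absence from both lists over signal classes (0.836), reversing in the stronger 50% (1.44). Strength against shared-promoter summits passed with the 2000 bp window (0.706) and reversed in replicate 2's list (1.01, against 0.737 in replicate 1's). The X call against those outside was lost with that window (1.18). A neighbour within 600 bp reversed against those outside in the other pooled list (1.01), the 2000 bp window (1.03) and replicate 1's list (1.25, against 0.997 in replicate 2's), and passed against shared-promoter summits in the stronger 50% (4.22). For tRNA genes the 2000 bp window reversed the comparison with shared-promoter summits (1.32) and all transcripts passed against those outside (0.489). With the 500 bp window no shared-promoter summit was near a tRNA gene, so no value was had.

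Among single-promoter summits, replicate 1's list lost the calls on distance (strength 0.761, support 0.791, against 0.647 and 0.714 in replicate 2's), which upstream summits alone also lost (0.925 and 0.816), on support on X (1.18, against 1.65 in replicate 2's) and on support in coding exons (0.992, against 0.309), and 1 summit per merged region lost GC content in coding exons (1.27). Within 100 bp of summits GAGAGAGA (1.35) and TATAAA (1.42) passed against those outside, TAATTA reversed there (1.32), and TGACGTCA (0.882) and TTTCAG (0.81) reversed against shared-promoter summits.

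Tests on the own lists, on upstream summits alone, on autosomes alone and of X over GC classes were chosen after seeing the data for the contrasts among single-promoter summits, strength and X. No paired analysis was possible because the 2 replicates form a single group. With depth unknown, no limit of detection can be given, and a gene without a summit is one with no called peak there.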

Other observations

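The word GAGACGCA, looked for on both strands after the data had been seen, lay within 50 bp of 86 single-promoter summits (6.07%, Wilson interval 4.94 to 7.44%), 16 shared-promoter summits (5.97%) and 179 summits outside windows (3.31%). It was in 0.662% of window tiles and 3.04% at like GC. It stands on the other strand of the hsp-3 sequence. The 86 summits had a median signal of 152. In the strongest 20% were 43% of them, beside 27.2% of all single-promoter summits, and in both own lists 62.8%, beside 55.3%. The words CTCCGCCC and GGGCGTGG were looked for in the same way. They lay at 2.05 and 1.13% of single-promoter summits, against 2.39 and 1.65% of tiles at like GC and 1.04 and 0.537% of summits outside. Of the single-promoter summits with CTCCGCCC and GGGCGTGG, 37.9 and 37.5% were in the strongest 20%, and 51.7 and 56.2% in both own lists. As the words were picked from these data, this is a description without a test.

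TTTCAG lay within 50 bp of 2.26% of single-promoter summits on X (7 of 310, Wilson interval 1.1 to 4.59%), against 8.41% on autosomes (93 of 1106, 6.91 to 10.2%), while the window tiles had it in 15.7 and 19.6%. CACGTG was in 0.968% on X and 3.35% on autosomes. These values were picked out after they were seen, and the difference was not tested.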
